A study of Mus musculus with 4 samples.

Results

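Interferon-responsive microglia were the cells, among brain myeloid cells sorted from cuprizone-fed mice, that carried transcripts of several classical interferon-stimulated genes at once. A cell was counted as one if it had 4 or more unique molecular identifiers (UMIs, each standing for 1 captured transcript) summed over Ifit1, Ifit2, Ifit3, Rsad2 and Oasl1, from at least 2 of these 5 genes, and 0 UMIs of Mrc1, a gene of border-associated macrophages. Of 40869 cells that passed filters of 200 to 6000 genes and at most 10% mitochondrial UMIs, 2596 met the rule, and the remaining 38273 are called the other cells. The 4 libraries came from 4 mice. Both PRMT1FL mice (mouse 1 and mouse 2) are labelled wild type and are named in the study after the floxed Prmt1 allele, and whether they carried Cre is not stated in the sources used here. Both PRMT1Cx3cr1-KO mice carried the floxed alleles with the Cx3cr1-CreERT driver, which acts in microglia and in other Cx3cr1-expressing myeloid cells. Mice of both genotypes received tamoxifen and then a 0.2% cuprizone (CPZ) diet, a copper chelator that kills oligodendrocytes and strips myelin, for 5 wk. The labels give 5 to 6 wk as the age when the diet was given, whereas the methods give this age for tamoxifen and start the diet 2 wk later. Cells were sorted as CD45+ CD11b+, the sex of each mouse is not given in the sources used here, and no unfed mouse was profiled. Where 4 values are listed, they stand for PRMT1FL mouse 1, PRMT1FL mouse 2, PRMT1Cx3cr1-KO mouse 1 and PRMT1Cx3cr1-KO mouse 2, in this order.

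Type I interferons bind a receptor made of IFNAR1 and IFNAR2, whose kinases JAK1 and TYK2 phosphorylate STAT proteins. With IRF9 these form a complex that enters the nucleus and binds interferon-stimulated response elements, DNA stretches with repeated GAAA, at the genes it switches on. The products block viral translation and replication, sense nucleic acids, draw in leukocytes and, through USP18 and SOCS proteins, dampen the signal again. Microglia in this state have been described in ageing, infection and demyelination, and they make up a small share of the cells.

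The interferon-responsive microglia numbered 705, 563, 845 and 483, and their UMIs summed to 8919498, 8456695, 11700389 and 6751836 per mouse. The complete libraries held 91306165, 76943248, 85874289 and 99559644 UMIs. Because the rule counts raw UMIs, deeper cells reached it more readily. The median member had 10968, 13006, 11937 and 12086 UMIs, against 5846.5, 6630.0, 5910.0 and 6821.0 in the other cells. Shares of cells are therefore also given after each cell was thinned to 2000 UMIs. Barcodes that also occurred in another library belonged to only 1, 6, 3 and 1 of the members. Doublet calling by its automatic threshold marked 0, 2, 0 and 0 cells, which is no working call, and the cells with the highest doublet scores were marked instead. They made up 15.5%, 9.95%, 15.4% and 14.9% of the members against 8.73%, 6.28%, 7.66% and 8.44% of the other cells, and they were kept.

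The label microglia was borne out by the markers. Csf1r, the receptor that microglia need to survive, stood at 1499, 1437, 1316 and 1262 CPM in the members (CPM is a gene's share of all UMIs in a sum, scaled to the same fixed total in every sum) and at 1565, 1504, 1385 and 1286 CPM in the other cells. Trem2, a lipid receptor of microglia, stood at 2181, 2647, 2117 and 1691 CPM against 2235, 2668, 2136 and 1689 CPM. Astrocytes by their markers, 116, 83, 16 and 10 cells, contributed no member. They had a rule-gene UMI in 12.9%, 9.64%, 6.25% and 0% of cells at a median of 2898.5, 3051, 1256.5 and 1864.5 UMIs, against 29.9%, 31.3%, 35.2% and 22.9% of the cells with microglia markers, whose median was 6320.0, 7156, 6374 and 7082 UMIs. Thinned to 2000 UMIs, 10 of 80 astrocytes (12.5%) in PRMT1FL mouse 1, 1 of 60 (1.67%) in PRMT1FL mouse 2 and none of 3 and 4 in PRMT1Cx3cr1-KO mice 1 and 2 had a rule-gene UMI, against 13.3%, 13.3%, 16.7% and 10.02% of the cells with microglia markers. In PRMT1FL mouse 1 the 2 shares were close, so a single rule-gene UMI did not set these cells apart there. Endothelial cells by their markers, 34, 15, 15 and 10 cells, supplied 3, 3, 1 and 1 members and neutrophils 0, 2, 0 and 0. A rule-gene UMI was found in 52.9%, 40%, 26.7% and 50% of these endothelial cells, at a median of 2048.5, 2726, 1585 and 1997.5 UMIs. Their unthinned shares exceeded those of the cells with microglia markers in every mouse but PRMT1Cx3cr1-KO mouse 1.

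Prmt1, the arginine methyltransferase deleted in the PRMT1Cx3cr1-KO mice, was detected at 92.7, 80.9, 68.2 and 68.0 CPM in the members. Both PRMT1Cx3cr1-KO values lay below both PRMT1FL values, with a log2 fold change of -0.40 (SE 0.10) and an adjusted p of 0.117 in edgeR. The other cells gave 90.8, 84.2, 70.6 and 70.8 CPM, a fall of Prmt1 of -0.35 with an adjusted p of 0.0435 in edgeR. The libraries read the 3′ ends of transcripts, and the sources used here do not give the deleted exons, so Prmt1 counts are no check of the deletion. The driver gene Cx3cr1, a chemokine receptor, stood at 1368 and 1487 CPM in PRMT1FL members and at 814 and 857 CPM in PRMT1Cx3cr1-KO members. The driver allele of the knockout mice lies at this locus.

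The members were chosen by the UMIs of the 5 rule genes, so the levels of these genes are a description. Ifit1, Ifit2 and Ifit3 encode proteins that bind viral RNA and hold back its translation. In the members Ifit3 stood at 412, 353, 290.0 and 300.1 CPM against 16.3, 17.3, 20.2 and 11.0 CPM in the other cells. Ifit2 followed with 360.2, 292, 287 and 276 CPM against 16.2, 15.8, 19.8 and 12.3, and Ifit1 with 126, 109, 74.4 and 100.4 CPM against 4.70, 4.66, 5.14 and 3.90. Rsad2 encodes viperin, an enzyme that makes a chain-terminating nucleotide. It gave 275, 234, 236 and 239.6 CPM against 10.6, 10.4, 13.8 and 7.49. Oasl1, of the oligoadenylate synthetase family, gave 66.0, 55.1, 46.0 and 35.4 CPM against 3.79, 3.02, 4.44 and 1.86. The median member carried 7 rule UMIs in every mouse, and the richest cell carried 175, 232, 235 and 123. The members held 72.5%, 72.1%, 70.8% and 66.3% of all UMIs of these genes among the passing cells.

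The promoters shown are from rule genes and genes that stood highest in these cells, chosen because they held the letters of the interferon response element. Of the 25 highest genes outside the rule, 20 had a promoter in RefSeq, and 10 of these held the letters. Sequences were read from RefSeq (GRCm38.p6) from 250 bases before each gene's start to 50 bases after it. Capitals mark GAAANNGAAA or its reverse complement.
Ifit1: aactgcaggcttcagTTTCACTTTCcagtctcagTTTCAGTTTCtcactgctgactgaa
Ifit3: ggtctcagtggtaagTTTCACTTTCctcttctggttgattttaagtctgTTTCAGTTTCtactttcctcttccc
Rsad2: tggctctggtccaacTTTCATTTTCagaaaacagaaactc
Ifi213: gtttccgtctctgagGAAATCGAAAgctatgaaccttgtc
Ifi206: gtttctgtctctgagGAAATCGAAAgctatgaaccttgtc
Isg15: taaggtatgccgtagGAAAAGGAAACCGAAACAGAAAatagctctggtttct
Cxcl10: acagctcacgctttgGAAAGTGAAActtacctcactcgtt
Gbp2: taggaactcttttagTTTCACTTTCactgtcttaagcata
The Ifit1 stretch lies at chr19:34640770-34640828 on the plus strand, with its matches 104 and 85 bases before the start. Ifit3 lies at chr19:34583358-34583431 on the plus strand, with matches 156 and 122 bases before the start, and the same 74 bases recur at chr19:34607754-34607827 before Ifit3b, a near-identical copy of the gene. Rsad2 lies at chr12:26456548-26456587 on the minus strand, 120 bases before its start. Ifi213 and Ifi206, neighbouring genes for DNA-binding proteins, lie at chr1:173599321-173599360 and chr1:173491334-173491373, both on the minus strand. Isg15, at chr4:156200860-156200911 on the minus strand, held 3 overlapping matches within 78 bases of its start. Cxcl10 (chr5:92349078-92349117, minus strand) held its match 213 bases before the start and Gbp2 (chr3:142620589-142620628, plus strand) 59 bases before it. Of the 5 rule genes, Ifit2 and Oasl1 had no match in this window.

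Outside the rule genes, 57 of 7213 genes with a mean of 10 CPM or more (0.79%) were at least 2-fold higher in the members than in the other cells in every mouse, on a log2 (CPM + 1) scale. None of the 7213 (0%) was 2-fold lower in every mouse. The rule used this contrast, so no test was made of it. Across all 7213 genes, 974 (13.5%) were higher in every mouse by any amount, 1921 (26.6%) were lower in every mouse, and the median difference was -0.04. Of the 57 genes, 50 belonged to a list of interferon, chemokine or antigen presentation genes. Promoters of 43 of the 57 were found in RefSeq, and 20 of these (46.5%) held GAAANNGAAA, against 936 of all 27025 genes (3.46%) with a match in any of their promoters of the same length and 196 of 5821 (3.37%) among the compared genes. Such a match is a string of letters and not a site shown to be bound.

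**Figure D1:**
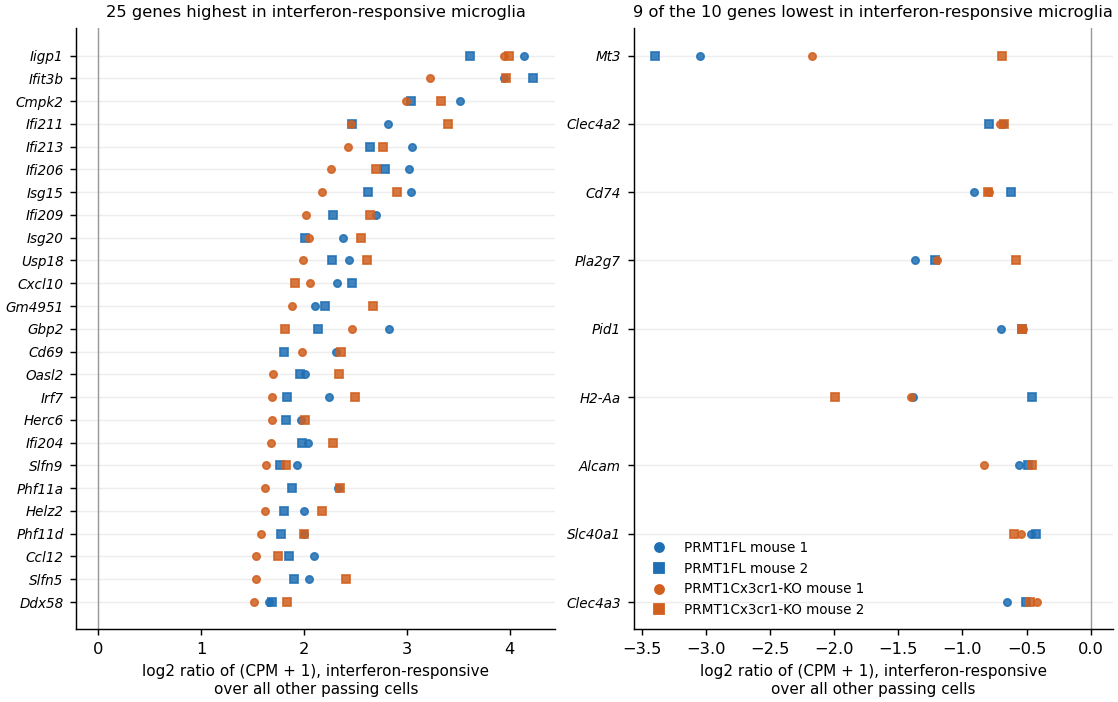
Log2 ratio of CPM + 1 in the members over that in the other cells (horizontal axis) for the 25 genes that stood highest and 9 of the 10 that stood lowest, 1 point for each of 4 mice (PRMT1FL blue, PRMT1Cx3cr1-KO orange, circles mouse 1, squares mouse 2). Every point of the 25 lies above a log2 ratio of 1, led by Iigp1, and every point of the 9 lies below 0.

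Antiviral effectors made up most of the 57. Of 62 list members in the data 50 had a mean of 10 CPM or more, and of these 32 were 2-fold higher in every mouse, 48 were higher by any amount in every mouse and none was lower, with a median log2 ratio of 1.33. Cmpk2, a mitochondrial nucleotide kinase whose gene lies beside Rsad2, stood at 33.3, 27.9, 28.0 and 29.8 CPM against 1.99, 2.52, 2.65 and 2.05 in the other cells, a mean log2 ratio of 3.22 ± 0.25 (SD, n = 4). Isg20, an exonuclease that degrades viral RNA, stood at 48.4, 40.8, 51.2 and 48.9 CPM against 8.50, 9.36, 11.6 and 7.49. Ifitm3, which stops viruses from fusing with the endosome membrane, was already abundant in the other cells, with 298, 381, 376 and 232 CPM, and reached 725, 793, 772 and 729 CPM in the members. The 2 list members that were not higher in every mouse were the ribonuclease gene Rnase4 and Ifitm2. The summed CPM of the list was 8820.5, 8749.9, 8692 and 8323 in the members and 4607, 4971, 5279.9 and 4164 in the other cells. Its log2 ratio of 0.94, 0.82, 0.72 and 0.999 was 0.92, 0.78, 0.70 and 1.01 when the other cells were weighted to the depth of the members.

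Some of the genes that stood highest were neighbours on the chromosomes. Of the 57 and the 5 rule genes, 29 of 62 (46.8%) started within 200 kb of another of them, against 187 of 7215 compared genes (2.59%). Ifit2, Ifit3, Ifit3b and Ifit1 occupy chr19:34550694-34650009 (GRCm38). Ifi206, Ifi213, Ifi209, Ifi207, Ifi204 and Ifi211, which belong to a family of DNA-binding proteins, lie within 1 cluster on chromosome 1. Further groups were Slfn5, Slfn9, Slfn8 and Slfn2 on chromosome 11, Phf11a, Phf11b and Phf11d on chromosome 14, and Ccl2 with Ccl12 on chromosome 11. Family members share sequence, and reads that fit several copies equally are not counted by Cell Ranger, so the split between copies such as Ifit3 and Ifit3b (58.4, 69.5, 45.0 and 52.3 CPM in the members) is uncertain.

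Interferon-inducible GTPases, which attack the vacuoles of intracellular pathogens, showed the largest summed ratio of the lists apart from the rule genes and the scarcely detected ligands. Their summed CPM was 349, 321, 283 and 244 in the members and 86.3, 90.8, 90.6 and 73.8 in the other cells. All 8 with a mean of 10 CPM were higher in every mouse, 4 of them 2-fold (Iigp1, Gbp2, Irgm1 and Igtp), with a median log2 ratio of 1.17. Iigp1 stood at 65.4, 50.7, 56.2 and 29.5 CPM against 2.77, 3.22, 2.72 and 0.907, a mean log2 ratio of 3.92 ± 0.22 (SD, n = 4), which was the highest of the 57. Gbp2, a guanylate-binding protein, gave 33.7, 23.2, 25.9 and 12.7 CPM against 3.90, 4.49, 3.85 and 2.89. For both genes the lowest value was in PRMT1Cx3cr1-KO mouse 2.

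**Figure D2:**
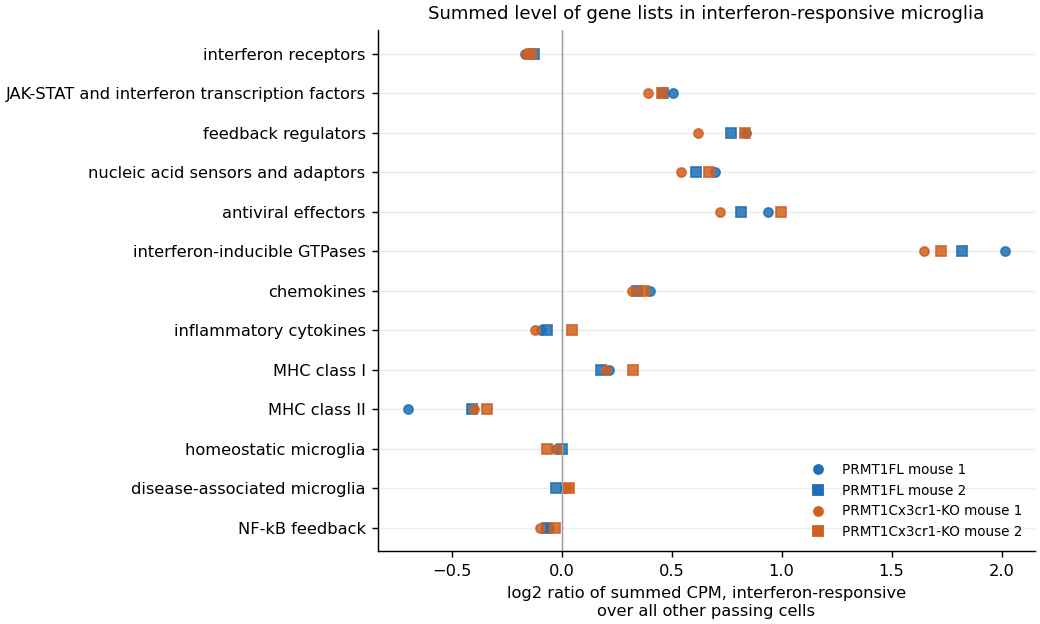
Log2 ratio of summed CPM in the members over that in the other cells (horizontal axis) for 13 gene lists, 1 point for each of 4 mice (PRMT1FL blue, PRMT1Cx3cr1-KO orange). The GTPases sit at 1.65 to 2.01 and the antiviral effectors at 0.72 to 0.999. MHC class II lies below 0 in all 4 mice (not in 2 of them when Mrc1 cells are not excluded).

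Interferon genes were scarcely detected, and the receptor genes were not higher in these cells. Of 21 interferon genes, 17 had no UMI in any passing cell. Ifnb1 was at 0, 1.42, 1.97 and 0.444 CPM in the members and at 0.0123, 0.120, 0.0705 and 0.0560 CPM in the other cells, and Ifng was at or below 0.148 CPM in every sum. All interferon genes together had 1, 13, 23 and 4 UMIs in the members and 5, 11, 7 and 7 UMIs in the other cells, so that their summed CPM was higher in the members of every mouse from few counts. None of the 5 receptor genes was higher in the members in every mouse, and 4 were lower in every mouse, with a median log2 ratio of -0.09. The log2 ratios of their summed level, -0.17, -0.13, -0.16 and -0.14, shrank to -0.06, -0.01, -0.06 and -0.05 against other cells weighted to the members' depth. Ifnar2 gave 216, 229.9, 239 and 229 CPM in the members and 219.7, 234, 224 and 233 CPM in the other cells. Ifngr1, of the interferon gamma receptor, gave 183, 204, 192 and 221 CPM against 245, 248, 259.9 and 257.

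Of 13 JAK-STAT and interferon transcription factor genes, 10 were higher in every mouse, 2 were lower in every mouse, and Stat2 and Irf7 were among those 2-fold higher, with a median log2 ratio of 0.21. Irf7, which amplifies interferon production, stood at 223, 192, 213 and 174 CPM against 46.2, 53.2, 65.0 and 29.9. Stat2 stood at 83.6, 76.0, 74.9 and 72.4 CPM against 23.7, 22.6, 26.4 and 19.6. Irf9, whose product pairs with STAT2, differed less, with 42.9, 44.8, 50.3 and 49.3 CPM against 40.4, 40.5, 44.6 and 37.1. The kinase Jak1 gave 92.5, 89.5, 90.3 and 101 CPM against 93.4, 91.0, 97.7 and 100.2, so that its values in the 2 classes overlapped.

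Feedback regulators and nucleic acid sensors were also higher. Of 9 feedback genes with a mean of 10 CPM, 8 were higher in every mouse, none was lower, and Isg15, Usp18 and Herc6 were 2-fold higher, with a median log2 ratio of 1.14. Isg15, a ubiquitin-like protein that is attached to other proteins, stood at 249.8, 229, 243 and 247 CPM against 29.5, 36.3, 52.8 and 32.0. Usp18, the protease that removes ISG15 and also blocks IFNAR2, stood at 154, 132, 98.0 and 91.8 CPM against 27.7, 26.5, 23.9 and 14.2. Socs3, a suppressor of cytokine signalling, was at 330.1, 348, 447 and 352 CPM against 316, 322, 405 and 305, a mean log2 ratio of 0.13. Among 14 sensors and adaptors 10 were higher in every mouse and 1 (Tbk1) was lower, with a median log2 ratio of 0.45. The RNA sensors Ddx58, Ifih1 and Dhx58 and the Z-form nucleic acid sensor Zbp1 were 2-fold higher, with mean log2 ratios of 1.68, 1.71, 1.39 and 1.69. Tmem173, which encodes the adaptor STING, stood at 95.5, 103, 93.9 and 88.1 CPM against 95.4, 105, 90.8 and 90.2.

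Of 12 chemokine genes with a mean of 10 CPM, 3 were 2-fold higher in every mouse, 7 were higher and 2 were lower in every mouse, with a median log2 ratio of 0.17. Cxcl10, which attracts CXCR3-bearing T cells, stood at 904, 772, 957 and 620.4 CPM against 179.9, 138, 229 and 164. Ccl12 stood at 816, 770.0, 813 and 839 CPM against 189.6, 212, 279 and 248. Its neighbour Ccl2 encodes an attractant of monocytes and stood at 149.9, 124, 194 and 238 CPM against 35.2, 34.1, 70.1 and 74.0. Thinned to 2000 UMIs, 30.1%, 27.2%, 32.6% and 24.1% of the members had a Cxcl10 UMI, against 8.81%, 7.38%, 12.2% and 8.39% of the other cells. Ccl4 and Ccl3, the most abundant chemokine genes of both classes, had mean log2 ratios of 0.18 and 0.15. Ccl5 depended on the mouse, with 83.6, 120.5, 137 and 13.6 CPM in the members against 39.9, 36.8, 39.9 and 12.5. Its value in PRMT1Cx3cr1-KO mouse 2 was far below the other 3, and Cxcl9, with 55.9, 65.5, 45.2 and 9.48 CPM, was lowest in the same mouse. Of 9 inflammatory cytokine genes 2 were higher in every mouse (Il18 and Il15) and none was lower, with a median log2 ratio of 0.05.

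Of 20 MHC class I pathway genes 19 were higher in every mouse and none was lower, by a median log2 ratio of 0.32, and only Nlrc5, the transactivator of the class I genes, was 2-fold higher. B2m, the light chain of class I, stood at 3625, 4004, 3301 and 2746 CPM against 3249, 3603, 2962 and 2313, and the peptide transporter Tap1 at 116, 98.7, 98.5 and 89.9 CPM against 58.1, 54.6, 59.5 and 40.9. None of 8 MHC class II genes was higher in every mouse and 4 were lower, with a median log2 ratio of -0.30. Cd74, the class II invariant chain, stood at 486, 756, 212 and 99.5 CPM against 913, 1165, 368 and 174. The summed class II level gave log2 ratios of -0.70, -0.41, -0.40 and -0.34, which shrank to -0.30, -0.08, -0.20 and -0.23 against other cells weighted to the members' depth. The share of cells with a class II UMI after thinning was 73.1%, 71.3%, 69.6% and 61.7% of the members and 72.0%, 75.2%, 67.0% and 61.3% of the other cells, so the classes did not stand apart on this measure. The rule also bears on class II, since it left cells with Mrc1 out of the members but not out of the other cells. The 19, 38, 22 and 29 cells that met the rule apart from Mrc1 held 11532, 9803, 1700.5 and 3121 CPM of class II, against 1137, 1688, 744 and 596 CPM in the members. With Mrc1 cells left out of both classes, an alternative chosen after seeing the data, the log2 ratios were -0.50, -0.23, -0.25 and -0.03. With Mrc1 cells not excluded from the members they were -0.32, 0.06, -0.32 and 0.12. The lower class II level thus depended on this exclusion in mouse 2 of each genotype and stayed below 0 in mouse 1 of each.

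Among 17 homeostatic genes 1 was higher and 7 were lower in every mouse, with a median log2 ratio of -0.04, equal to the median of all compared genes. P2ry12, the receptor by which microglia sense ATP and ADP, stood at 331, 401, 429.6 and 461 CPM against 404, 460.2, 553 and 589, whereas Tmem119 stood at 306, 386, 415 and 417 CPM against 327, 376, 405 and 433. Of 25 disease-associated genes 9 were higher and 10 were lower in every mouse, with a median log2 ratio of -0.01. Ch25h, which makes the antiviral oxysterol 25-hydroxycholesterol, was highest of them by ratio, with 176, 162, 155 and 237 CPM against 103, 102, 94.8 and 167. Lgals3, a galectin of phagocytic microglia, was lowest, with 160.2, 139, 112 and 128 CPM against 208, 207, 166 and 169. After thinning, 15.3%, 15.6%, 7.70% and 4.78% of the members had a UMI of Itgax (CD11c), against 18.6%, 19.6%, 10.8% and 5.49% of the other cells.

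Among the 10 genes that stood lowest, 2 belonged to MHC class II (Cd74 and H2-Aa) and 2 encode C-type lectin receptors (Clec4a2 and Clec4a3). With Mrc1 cells not excluded, the summed class II level was not lower in mouse 2 of either genotype. Slc40a1, the iron exporter ferroportin, stood at 14.2, 15.6, 16.9 and 19.8 CPM against 20.1, 21.3, 25.2 and 30.5. Pid1, Alcam, Pla2g7 and Mt3 were also among them. Mt3, an astrocyte marker here, stood at 3.59, 1.77, 1.45 and 1.63 CPM against 36.9, 28.1, 10.1 and 3.25. The summed astrocyte markers followed it, with 58.2, 68.6, 59.4 and 48.4 CPM in the members (Slc1a3 the most abundant of 10, and Gja1 at 0 in both PRMT1Cx3cr1-KO mice) against 202, 169, 176 and 53.4 CPM. Weighted to the members' depth, the other cells held 104, 88.4, 237 and 44.7 CPM of these markers, which in PRMT1Cx3cr1-KO mouse 2 was below the members. The part of astrocytes in the Mt3 ratio was not tested.

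The genes outside the lists among the 57 were Gm4951, Cd69, Pml, Fgl2, Slc25a22, Tpst1 and Fam241a, a group picked out after the values were seen. Gm4951, a predicted GTPase gene, stood at 39.8, 43.9, 23.8 and 24.0 CPM against 8.49, 8.70, 5.72 and 2.92. Cd69, a lectin that keeps leukocytes in tissue, stood at 71.3, 45.5, 90.8 and 70.4 CPM against 13.6, 12.3, 22.3 and 12.9. Pml, the organizer of nuclear bodies, stood at 27.7, 31.8, 26.2 and 28.6 CPM against 9.34, 10.0, 10.3 and 8.81.

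The threshold of 4 UMIs cut a continuum. Cells with exactly 3 rule UMIs, just outside, numbered 301, 207, 360 and 204, and their antiviral effectors summed to 6423, 6484, 6865 and 6297 CPM. Cells with exactly 4, just inside, numbered 158, 116, 179 and 95 and summed to 6863, 6753, 7142 and 6781 CPM. Cells with 0 rule UMIs were at 4155, 4473, 4665 and 3727 CPM. Cells with 20 or more, which were 20.7%, 18.8%, 14.3% and 14.3% of the members, were at 12600.4, 12597, 12656 and 10829 CPM. The GTPases went from 77.4, 79.9, 84.0 and 65.4 CPM at 0 rule UMIs to 880, 846, 872 and 667 CPM at 20 or more. Over the same range Cxcl10 went from 164, 129.9, 206 and 157 CPM to 2631, 2486, 3308 and 2372 CPM. A further 33, 26, 21 and 23 cells had 4 or more UMIs of a single rule gene, and 19, 38, 22 and 29 had enough rule UMIs but also an Mrc1 UMI. Both kinds stayed outside the class.

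**Figure D3:**
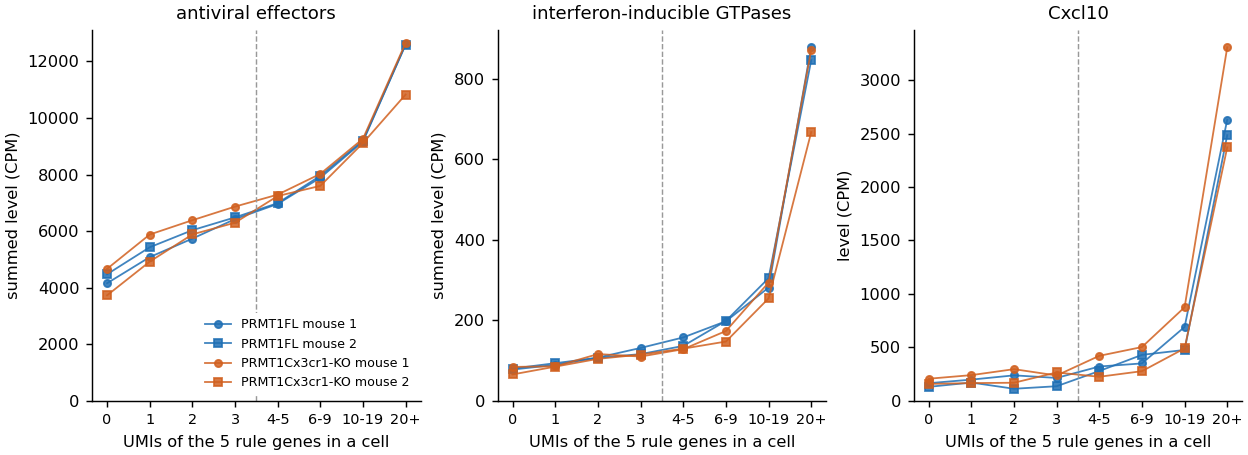
Summed CPM of antiviral effectors, summed CPM of interferon-inducible GTPases and CPM of Cxcl10 (vertical axes) in cells binned by their UMIs of the 5 rule genes (horizontal axis), 1 line for each of 4 mice (PRMT1FL blue, PRMT1Cx3cr1-KO orange), with a dashed line where the rule begins. All 3 measures were highest at 20 or more UMIs in every mouse, and the antiviral sum changed little across the dashed line.

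The first question between genotypes was how many cells were in this state. The members made up 6.17% of the passing cells in PRMT1FL mouse 1 (95% exact binomial interval 5.74 to 6.63%), 6.89% in PRMT1FL mouse 2 (6.35 to 7.46%), 8.15% in PRMT1Cx3cr1-KO mouse 1 (7.63 to 8.69%) and 4.43% in PRMT1Cx3cr1-KO mouse 2 (4.05 to 4.83%). These intervals cover counting error only. The highest and the lowest share were both in PRMT1Cx3cr1-KO mice, with both PRMT1FL mice between them. The means were 6.53% ± 0.51 in PRMT1FL and 6.29% ± 2.63 in PRMT1Cx3cr1-KO mice (SD, n = 2 each), and the two-sided exact permutation test gave p = 1, where the smallest p that 2 mice against 2 allow is 0.333. After thinning, 1.80%, 1.89%, 1.97% and 1.03% of cells met the rule. The order of the mice was unchanged.

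Within the members, 98 of 11110 genes (0.882%) changed between genotypes in edgeR's quasi-likelihood test on 1 sum of UMIs per mouse, 55 higher (0.495%) and 43 lower (0.387%) in PRMT1Cx3cr1-KO mice. Before adjustment 1276 genes had a p under 0.05. Each genotype had 2 mice, and leaving out each mouse in turn gave counts of 6, 8, 720 and 363, so single calls are weakly held. With the members thinned to 2000 UMIs per cell the count was 30.

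Most interferon-stimulated genes did not pass this test. Of 61 antiviral effectors tested, 0 rose and 2 fell (Oas3 and Ifi44), 48 had a negative fold change and the median log2 fold change was -0.18. Of 14 GTPases 1 fell (Gbp6), and of 10 feedback regulators 1 fell (Usp18). Leaving out each mouse in turn moved the antiviral median to -0.07 without PRMT1FL mouse 1 and to -0.26 without PRMT1FL mouse 2. None of 13 signal transducers, 16 sensors and 20 MHC class I pathway genes passed, with medians of -0.11, -0.15 and -0.20. The MHC class I median was -0.32 or -0.08 when PRMT1Cx3cr1-KO mouse 1 or mouse 2, respectively, was left out. Of the 57 genes that marked the members, 2 fell (Usp18 and Gm4951), 1 rose (Ccl2) and 50 had a negative fold change, with a median of -0.19. Over all 11110 genes 5592 were negative and the median was -0.002. In the other cells the medians of the 57, the antiviral effectors and the MHC class I pathway genes were -0.14, -0.09 and -0.24. All 5 rule genes had a negative fold change in the members, with a median of -0.42 and none past the threshold, so rule-gene content also differed between the genotypes' members.

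Usp18 fell from 154 and 132 CPM in PRMT1FL to 98.0 and 91.8 CPM in PRMT1Cx3cr1-KO members, a log2 fold change of -0.63 (SE 0.10, edgeR adjusted p = 0.0225). Oas3, an enzyme that makes the activator of RNase L, fell from 24.4 and 20.7 CPM to 12.1 and 10.8 CPM, by a log2 fold change of -1.004 (SE 0.15, edgeR adjusted p = 0.0159). Ifi44 fell from 15.4 and 14.9 to 6.15 and 2.37 CPM (log2 fold change -1.74, SE 0.29, edgeR adjusted p = 0.0252). In these genes the 2 genotypes did not overlap. Gbp6 fell from 8.97 and 10.9 CPM to 4.27 and 2.96 CPM (log2 fold change -1.44, edgeR adjusted p = 0.0234), and Gm4951 from 39.8 and 43.9 CPM to 23.8 and 24.0 CPM (log2 fold change -0.85, edgeR adjusted p = 0.00713). All 5 calls were lost without either PRMT1FL mouse: edgeR adjusted p of Usp18, Oas3, Ifi44, Gbp6 and Gm4951 was then 0.388, 0.297, 0.373, 0.254 and 0.101 without mouse 1, and 0.145, 0.143, 0.355, 0.370 and 0.174 without mouse 2. Their fold changes then kept their sign, from -0.51 for Usp18 to -1.77 for Ifi44, and all 5 calls held without either PRMT1Cx3cr1-KO mouse. After thinning, Oas3, Ifi44, Gbp6 and Gm4951 were not called (edgeR adjusted p = 0.668, 0.215, 0.455 and 0.0700), with log2 fold changes of -0.60, -1.61, -1.32 and -0.93, and DESeq2 did not call Ifi44 (log2 fold change -1.84, adjusted p = 0.239). In the other cells the same 5 genes had log2 fold changes of -0.55, -0.86, -1.49, -1.31 and -1.04, none past the threshold, and none of the 5 differed between the classes in the test given further on.

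Of 9 MHC class II genes 4 fell and none rose, with a median log2 fold change of -0.73. This median was -1.21 without PRMT1FL mouse 1, -1.27 without PRMT1Cx3cr1-KO mouse 1 and -1.22 without a filter on low counts. Cd74 fell from 486 and 756 CPM to 212 and 99.5 CPM, a log2 fold change of -2.02 (SE 0.30, edgeR adjusted p = 0.0164). H2-Aa, a class II chain, fell from 72.6 and 172 CPM to 22.99 and 10.2 CPM (log2 fold change -2.84, SE 0.40, edgeR adjusted p = 0.0130), H2-Eb1 from 39.0 and 112 CPM to 13.8 and 5.63 CPM (log2 fold change -2.88), and H2-Ab1 from 91.1 and 168 CPM to 64.0 and 49.2 CPM (log2 fold change -1.22). Cd74 was no longer called without either PRMT1FL mouse (edgeR adjusted p = 0.147 and 0.320, log2 fold changes -2.30 and -1.67) or in DESeq2 (log2 fold change -2.03, adjusted p = 0.108), and it was called without either PRMT1Cx3cr1-KO mouse. Of 25 disease-associated genes 2 fell and none rose, 19 had a negative fold change and the median was -0.20. Itgax fell from 103 and 98.7 CPM to 48.6 and 25.8 CPM (log2 fold change -1.44) and Cst7, a cystatin, by 0.74 on the log2 scale. Of 17 homeostatic genes 2 fell and none rose, and the median was -0.04, which ran from -0.10 to 0.0017 as each mouse was left out (above 0 without PRMT1Cx3cr1-KO mouse 2). Those that fell were Cx3cr1 and the lectin gene Siglech, by 0.82 and 0.64 on the log2 scale. These falls were not limited to the members. In the other cells 5 of 10 class II genes fell and none rose, with a median log2 fold change of -1.11. Cd74, H2-Aa and Itgax had log2 fold changes of -1.97, -2.05 and -1.50 there, and Itgax missed the threshold (edgeR adjusted p = 0.0740).

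Of 15 chemokine genes 1 rose and 2 fell (median log2 fold change 0.0046), and of 12 inflammatory cytokine genes 1 rose and none fell, with a median of 0.017. Leaving out a PRMT1Cx3cr1-KO mouse moved the chemokine median to -0.11 (mouse 1) or 0.17 (mouse 2). Ccl2 rose from 149.9 and 124 CPM to 194 and 238 CPM (log2 fold change 0.61, SE 0.11, edgeR adjusted p = 0.0437), while Ccl6 and Ccl9 fell, with log2 fold changes of -0.75 and -0.67. Tnf rose from 188 and 199 CPM to 418 and 338 CPM (log2 fold change 0.93, SE 0.11, edgeR adjusted p = 0.00713), and Tnfaip2, a gene induced by TNF, rose by a log2 fold change of 0.90. Cxcl10 itself, at 904, 772, 957 and 620.4 CPM, overlapped between genotypes (log2 fold change -0.13, edgeR adjusted p = 0.837).

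The largest rises among genes whose mice did not overlap varied in level. Saa3, an acute-phase protein, rose from 1.79 and 1.42 CPM to 12.1 and 20.1 CPM (log2 fold change 3.22, SE 0.32, edgeR adjusted p = 0.00217). Htr2b, a serotonin receptor of microglia, rose from 4.82 and 5.32 CPM to 17.8 and 17.8 CPM (log2 fold change 1.76). Wfdc17 rose from 58.5 and 71.7 to 119.9 and 265 CPM, and Ms4a7, a membrane protein gene of macrophages, from 14.8 and 13.4 to 29.4 and 70.1 CPM. In both the value of PRMT1Cx3cr1-KO mouse 2 was over 2-fold that of mouse 1. Osgin1, Gclm and Txnrd1, genes of the response to oxidants, rose by log2 fold changes of 2.15, 1.02 and 0.81. Gclm and Txnrd1 were the 2 called of 13 tested genes of the oxidative and integrated stress list, of which 6 had a negative fold change and whose median was 0.014, and Osgin1 was not on that list. The others of the 15 largest rises were Cfp, Mgst1, Cdhr3, Pla2g7, 5033421B08Rik, Kdelr3, Igfbp5, Pdlim4, Runx3 and Xdh.

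Some of the largest falls were genes of other cells. S100a8 and S100a9, the calprotectin genes of neutrophils, stood at 24.9 and 37.0, and at 21.1 and 33.1 CPM, in PRMT1FL members and at 1.48 CPM or less in PRMT1Cx3cr1-KO members. In the other cells S100a8 stood at 243, 747, 0.691 and 47.8 CPM. The summed neutrophil markers were 173, 218, 136 and 125 CPM in the members (Csf3r the most abundant of 8, with Camp and Ltf at 0 in every mouse and S100a9 and Retnlg among those at 0 in PRMT1Cx3cr1-KO mouse 1) against 583, 1664, 131 and 211 CPM in the other cells, and their part in these 2 falls was not tested. Cldn5 and Ly6c1, genes of endothelial cells, and Sparcl1 and Cryab, of astrocytes and oligodendrocytes, also fell, all from levels under 8 CPM. Of 6 endothelial markers tested within the members, 1 fell, 0 rose and 4 had a negative fold change. Of 2 astrocyte and 3 oligodendrocyte markers tested, 0 passed. The endothelial markers summed to 111, 118, 101 and 126 CPM in the members against 87.2, 77.3, 77.4 and 88.6 CPM in the other cells, and 3 or more of them were detected in 1.13%, 1.24%, 1.07% and 2.28% of the members, which were deeper, against 0.410%, 0.289%, 0.325% and 0.288% of the other cells. Against other cells weighted to the members' depth, the log2 ratios of the summed endothelial markers were 0.47, 0.57, 0.34 and 0.44. The part of these markers in the members' profile was not tested. Of these markers, Flt1 was the most abundant of 6, and Cldn5 and Slco1a4 were at 0 in PRMT1Cx3cr1-KO mouse 2. Red cell markers summed to 327 CPM in the members of PRMT1FL mouse 1 and to 0.118, 0 and 0 CPM in the other mice. The remaining large falls were S100a6, Fmr1nb, Kif1a, Tiam1 and 4930523C07Rik.

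**Figure D4:**
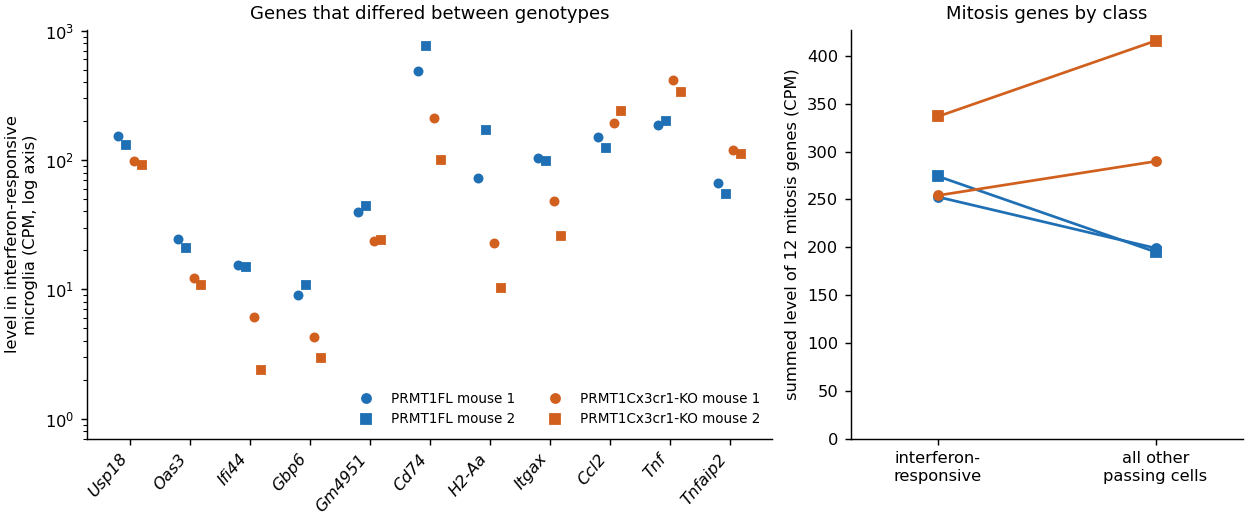
Left, CPM in the members (log axis) of 11 genes compared between genotypes, 1 point per mouse (PRMT1FL blue, PRMT1Cx3cr1-KO orange). Right, summed CPM of 12 mitosis genes (vertical axis from 0) in the members and in the other cells of each mouse. The members lie at 253 to 337 CPM in all 4 mice, while the other cells lie at 199 and 195 CPM in PRMT1FL and at 289.8 and 416 CPM in PRMT1Cx3cr1-KO mice.

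Whether a genotype effect was particular to these cells was asked with the genotype by class term over 8 sums, 2 per mouse, with the mouse as a block. In edgeR 40 of 13892 genes (0.288%) passed, 18 with a more positive effect in the members (0.13%) and 22 with a more negative one (0.158%). Of the other cells alone, 749 of 14630 genes (5.12%) passed between genotypes, 206 higher (1.41%) and 543 lower (3.71%), from far more cells. No member of the antiviral effector, GTPase, feedback, sensor, MHC class I or MHC class II lists was among the 40.

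Mitosis genes were the largest listed group among the 40. Of 12, 9 passed with a more negative effect in the members (Mki67, Top2a, Birc5, Ccnb2, Ube2c, Cenpf, Tpx2, Pbk and Cdc20), all 12 were negative and the median was -0.64. Mki67, the antigen of dividing cells, stood at 35.1, 33.7, 31.8 and 47.4 CPM in the members and at 23.2, 23.8, 33.4 and 55.6 CPM in the other cells. It was thus higher in the members of both PRMT1FL mice and lower in those of both PRMT1Cx3cr1-KO mice than in the other cells (difference of log2 fold changes -0.68, SE 0.09, edgeR adjusted p = 0.00321). The 12 genes summed to 253, 274, 254 and 337 CPM in the members and to 199, 195, 289.8 and 416 CPM in the other cells, and to 241, 257, 364 and 457 CPM in other cells weighted to the members' depth. All 14 DNA replication genes had a more negative effect too, with a median of -0.29, and none passed.

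This pattern depended on the processing. The number of mitosis genes called was 10 among cells of 8000 or more UMIs, 3 with marked doublets removed, and 6 to 11 as each mouse was left out. It was 0 with cells thinned to 2000 UMIs and 0 in DESeq2, and all 12 were negative in each of these, with medians between -0.56 and -0.77 over all alternatives. After thinning, the share of cells with a UMI of any of the 12 genes was 15.4%, 14.3%, 18.8% and 23.3% of the members and 11.9%, 10.9%, 16.9% and 22.99% of the other cells. The unthinned shares were 38.6%, 38.0%, 46.6% and 49.3% against 24.0%, 24.0%, 29.8% and 38.4%.

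Cxcl10 was the interferon-stimulated gene among the 10 smallest p values of this test. Its genotype effect was -0.13 in the members and 0.27 in the other cells, neither past the threshold, and the 2 effects differed by -0.39 (SE 0.05, edgeR adjusted p = 0.00215). Ccl12 and Ccl2 had differences of -0.32 and -0.39 that missed the threshold (edgeR adjusted p = 0.0665 and 0.0574). Apoe, the lipid carrier, and Timp2 differed in the opposite direction, by 0.19 and 0.17, and Apoe stood at 36069, 30252, 37036 and 36838 CPM in the members against 37393, 33341, 36679 and 33704 CPM in the other cells.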

How the data were processed

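Single-cell 3′ libraries (10x kit v2 per the labels, although the barcodes begin like those of the later v3 kit, and the effect on UMI counting was not tested) from sorted CD45+ CD11b+ brain cells of 4 CPZ-fed mice were counted by the authors with Cell Ranger 3.1.0 on mm10, per the submitters' processing notes, and raw UMI counts per gene and barcode were deposited after cell calling. These notes also name Seurat 3.2.0 and Scanpy 1.5.2. The counts were used as deposited. Cells were kept by their number of genes (200 to 6000) and a mitochondrial share of UMIs of 10% or less, and the rule was applied to raw UMIs. UMIs were summed per mouse and class, since cells are not replicates. Members and other cells were compared only by description, as log2 ratios with a pseudocount of 1 CPM over genes with a mean of 10 CPM or more. Genotypes were tested with edgeR 4.0.16 (quasi-likelihood test, TMM, filterByExpr, Benjamini-Hochberg over all genes tested, threshold 0.05), and shares with an exact permutation test. A 95% exact binomial interval was given for each share. The 6.54 to 9.15% of cells per library with the highest Scrublet scores (scanpy 1.11.5) were marked as doublets and kept. Alternatives were rule thresholds of 3 and 6 UMIs, Mrc1 cells kept, a 5% mitochondrial limit, doublets removed, microglia markers required, cells thinned to 2000 UMIs, other pseudocounts and filters, RLE size factors, DESeq2 1.42.0, a replicate block and each mouse left out. The alternative of cells with 8000 or more UMIs, and the counts of mitosis genes, were chosen after seeing the data. The p-values rest on 2 mice against 2.

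The members and gene lists were chosen with earlier results of these data known. Named were the 25 genes with the highest and the 10 with the lowest ratio in their least extreme mouse, the 15 largest rises and 15 largest falls past the threshold whose mice did not overlap, the 10 smallest p values of the genotype by class term, Prmt1, the rule genes, and, from each list, its 2 or 3 most abundant genes and any past the threshold. Gene positions are GENCODE M21 (GRCm38), and promoters are RefSeq GRCm38.p6. Scripts were tested on simulated data. Mx1, Mx2, Oas1b, Pyhin1, Cxcl11 and Clec7a were not analysed here. Some genes that the rule names are not reported here.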

Additional observations from a re-analysis of the deposited data

Results flagged for a closer look

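In 40 genes the genotype effect in the interferon-responsive microglia differed from that in the other cells, by edgeR's test of the genotype by class term. The values that follow are the log2 effect in the members minus that in the other cells. The 10 smallest p values were those of B430306N03Rik (-0.99), A530064D06Rik (-3.36), the securin gene Pttg1 (-0.66), Cxcl10 (-0.39), the nuclear RNA Malat1 (0.17), cyclin gene Ccnb2 (-0.85), Mki67 (-0.68), Aplp1 (2.37), the spindle gene Tpx2 (-0.90) and Plpp3 (2.08).

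B430306N03Rik was at 27.6, 23.5, 21.97 and 29.5 CPM in the members and at 9.02, 8.47, 15.4 and 19.8 CPM in the other cells, so its members overlapped between genotypes while its other cells did not. A530064D06Rik was at 5.05, 2.96, 5.64 and 7.26 CPM in the members and at 0.246, 0.509, 4.35 and 8.56 CPM in the other cells. Pttg1 was at 44.3, 45.4, 43.2 and 57.2 CPM in the members and at 20.9, 21.1, 32.2 and 43.6 CPM in the other cells. In the other cells it rose (log2 fold change 0.81, edgeR adjusted p = 0.0361).

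Ccnb2 was at 22.3, 22.2, 19.1 and 29.2 CPM in the members and at 17.3, 13.8, 24.9 and 36.4 CPM in the other cells. Tpx2 was at 15.5, 15.8, 12.6 and 17.6 CPM in the members and at 9.29, 9.58, 14.5 and 19.8 CPM in the other cells, so both were above the other cells in PRMT1FL mice and below them in PRMT1Cx3cr1-KO mice.

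Aplp1 and Plpp3 were at 1.79, 1.42, 2.99 and 3.70 and at 3.36, 2.72, 3.16 and 6.07 CPM in the members. In the other cells they were at 9.71, 9.24, 4.17 and 3.19 and at 17.4, 16.3, 5.74 and 5.56 CPM, where both genes fell. When only cells with microglia markers were used, their differences were 1.42 and 0.49 and neither passed (edgeR adjusted p = 0.159 and 0.775). The summed astrocyte markers were at 58.2, 68.6, 59.4 and 48.4 CPM in the members and at 202, 169, 176 and 53.4 CPM in the other cells. Malat1 was at 12185, 13653, 11695 and 11141 CPM in the members and at 15560.0, 16778, 13552 and 12328 CPM in the other cells, and its difference missed the threshold with either PRMT1FL mouse left out (differences 0.12 and 0.16, edgeR adjusted p = 0.438 and 0.0978), with doublets removed (0.15), with microglia markers required (0.11), after thinning (0.15) and in DESeq2 (0.16).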

How the results depend on the processing

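The log2 ratio of the members' share of cells between genotypes (-0.05) turned to 0.025 among cells with 8000 or more UMIs and ran from -0.56 to 0.32 as each mouse was left out, positive without PRMT1FL mouse 2 and without PRMT1Cx3cr1-KO mouse 2. The count of 57 genes 2-fold higher in the members stayed between 43 and 80 under every alternative run. That of 0 genes 2-fold lower became 1 with 6 rule UMIs required, 5 after thinning, 5 with a mean of 1 CPM required, 9 with a mean of per-cell CPM, and 0 to 6 with a mouse left out. The 98 genes changed between genotypes became 169 with 3 rule UMIs required, 62 with Mrc1 cells kept, 30 after thinning and 459 without a filter on low counts. With a mouse left out they ranged from 6 to 720, and 5, 3, 98 and 98 of the 98 were then kept, for the 4 mice in order. DESeq2 called 99, of which 70 were shared. The 40 genes of the genotype by class term became 11 with marked doublets removed, 9 after thinning, 86 among cells with 8000 or more UMIs, 126 without a filter, 9 in DESeq2, and 45 to 125 with a mouse left out. Mice with the same number share only a number (correlation of their deviations 0.00571 over 11110 genes). A replicate block over these numbers gave 245 genes, and Prmt1 was called with it (edgeR adjusted p = 0.0425). The causes of these changes were not tested.

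The alternatives were run for 39 of the named genes between genotypes and for 10 in the genotype by class term, and none of these changed direction. Of 597 values of these genes between genotypes, 470 kept their side of the threshold, 124 lost it and 3 gained it. All 3 were for Prmt1 (no filter, replicate block, without PRMT1Cx3cr1-KO mouse 1). Of 140 for the genotype by class term, 121 kept it and 19 lost it. Of 560 ratios to the other cells, from the 35 genes that stood highest or lowest, 446 moved by less than the spread between mice. With one PRMT1FL or PRMT1Cx3cr1-KO mouse left out, the lone mouse is assumed to vary like the others. The members' sums rest on 483 to 845 cells per mouse, against 7607 to 10722 in the other cells, so differences that passed in the other cells may not have been detectable in the members.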

Other observations

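Immediate early genes are switched on within minutes of a stimulus, tissue dissociation included. Of 18 immediate early and heat shock genes none was higher in every mouse and 9 were lower, with a median log2 ratio of -0.12. The log2 ratios of their summed level, -0.19, -0.14, -0.12 and -0.05, shrank to -0.06, -0.03, -0.02 and -0.0051 against other cells weighted to the members' depth. Jund, a subunit of AP-1, stood at 754, 794, 841 and 589.9 CPM in the members and at 992, 962, 1063 and 700.2 CPM in the other cells. Junb and Btg2 had a genotype effect that was more positive in the members than in the other cells, by 0.15 and 0.19 (edgeR adjusted p = 0.0190 for each). Of 9 genes of the oxidative and integrated stress responses none was higher and 4 were lower in every mouse, with a median log2 ratio of -0.22. Their summed log2 ratios of -0.19, -0.21, -0.25 and -0.17 likewise became -0.06, -0.11, -0.08 and -0.10. Gdf15, a stress-induced cytokine, stood at 6.84, 17.0, 29.0 and 31.1 CPM in the members and at 11.8, 16.6, 52.9 and 60.0 CPM in the other cells. Both PRMT1Cx3cr1-KO values exceeded both PRMT1FL values in each class, but the change within the members missed the threshold (log2 fold change 1.29, edgeR adjusted p = 0.0679).

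Of 11 genes of NF-kB and its feedback 4 were higher and 1 was lower in every mouse, with a median log2 ratio of 0.05. Nfkbia, the inhibitor that NF-kB induces against itself, stood at 1051, 1069, 1511 and 1347 CPM in the members and at 1149, 1197, 1679 and 1395 CPM in the other cells. Of 7 arginine methyltransferase genes with a mean of 10 CPM or more, none was higher and 4 were lower in every mouse. Prmt5, the main symmetric arginine methyltransferase, stood at 17.5, 19.5, 17.8 and 20.4 CPM in the members.

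Markers of other cell types not described so far were at these levels. Oligodendrocyte markers summed to 81.8, 72.7, 78.2 and 81.9 CPM in the members against 142, 118, 87.0 and 64.8 CPM in the other cells, with Cnp the most abundant of 7 and Cldn11 at 0 in the members of every mouse. Against depth-weighted other cells their log2 ratios were -0.54, -0.42, 0.08 and 0.35. Border-associated macrophage markers summed to 120.3, 129, 134 and 253 CPM against 170.3, 177, 163 and 274 CPM, with Stab1 the most abundant of 9 and Mrc1 at 0 by the rule. By cell, 3 or more of the 9 were detected in 3.40%, 4.26%, 4.62% and 11.2% of the members, which were deeper, against 2.56%, 3.31%, 2.47% and 6.69% of the other cells. Pf4, 1 of the 9, was at 20.6, 24.4, 37.3 and 111 CPM in the members. Its genotype effect was more positive in the members, by 0.55 (edgeR adjusted p = 0.0190). Monocyte markers summed to 284, 228, 365 and 318 CPM against 203, 177, 285 and 309 CPM, almost all of it Fn1 (281, 219, 361 and 311 CPM in the members), with Chil3 at 0 in the members of every mouse. The monocyte log2 ratios of 0.49, 0.36, 0.36 and 0.04 became 0.10, -0.04, -0.11 and -0.24 with this weighting, so the higher level in the members turned in 3 of 4 mice. Dendritic cell markers summed to 102, 109, 105 and 99.5 CPM against 125, 129, 126 and 129 CPM, nearly all of it Fscn1, with Ly6d at 0 in the members of every mouse, and their log2 ratios were -0.16, -0.10, -0.19 and -0.34 with the weighting. Lymphocyte markers summed to 14.0, 11.6, 8.72 and 5.48 CPM against 14.9, 19.6, 12.1 and 8.15 CPM, most of it Cd79b, with Cd3e among those at 0 in the members of every mouse, and their log2 ratios were 0.12, -0.58, -0.21 and -0.28 with the weighting.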
